A study of Drosophila melanogaster with 6 samples.

Results

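The proteasome subunits of Drosophila melanogaster were taken as every listed gene whose name starts with Rpn, Rpt, Prosalpha or Prosbeta followed by a digit, which gave 47 of 17609 listed genes. Of these, 32 are main subunits and 15 are paralogues with names ending in R or T, sometimes with a further digit, here called testis-type. RNA was measured in 6 libraries of adult flies, 1 for each combination of 2 genotypes and 3 tissues. Every fly carried Act88F-Gal4, a driver for the indirect flight muscle. In the foxo RNAi flies the driver expressed an RNAi construct against foxo, a transcription factor restrained by insulin signalling, and in the control flies it was crossed to w1118. Per the labels, all flies were 10 days old, and by the protocol they were fed sugar and yeast food for 10 days, starting 2 to 3 days after eclosion, which would end later than the labelled age, a conflict that the labels do not settle. The thorax was dissected intact and labelled as skeletal muscle, the gut was the intestine, and the carcass, labelled as fat body, was taken without intestine and eggs. The thorax therefore holds more than the cells in which the driver acts. The number of flies behind a library and their sex are not given in the labels.

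The proteasome is the protease complex that degrades proteins marked with ubiquitin. Its core particle is a barrel of stacked rings: outer alpha rings that gate the entry, and inner beta rings in which Prosbeta1, Prosbeta2 and Prosbeta5 carry the caspase-like, trypsin-like and chymotrypsin-like active sites. The regulatory particle caps the barrel: its base holds the Rpt ATPases, which unfold the substrate, together with the scaffolds Rpn1 and Rpn2 and the ubiquitin receptors Rpn10 and Rpn13, and its lid holds the deubiquitinase Rpn11 and further Rpn subunits. In muscle, degradation by the proteasome is one of the routes of protein loss during wasting, and in mammals FoxO factors are known to raise ubiquitin ligases of that route.

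The deposited read counts summed to between 13274574 and 34385727 per library, and 40 of the 47 genes had any read. Counts of at least 30 reads in every library were found for 30 of the 32 main subunits, which are described here as the measured subunits: 6 of the 7 alpha subunits, all 7 beta subunits, 5 of the 6 ATPases, the 4 other base subunits and all 8 lid subunits. Rpt1 was listed at 0 reads in all 6 libraries. Rpt1 (chr2R:7652440-7653954, Release 6) lies wholly inside the span of CG17985, and of 1792 coding genes that lie inside another coding gene 0 had any read, so it was treated as not measured. Prosalpha1 (chr2R:7827303-7828678) had 1 read over the 6 libraries, and its neighbouring copy, listed as CG30382 and named Prosalpha1R in the Ensembl annotation, had 0. The treatment of reads that fit both copies is not stated in the labels, so Prosalpha1, too, was treated as not measured. Rpt6 was undercounted, since 141 of its 1404 exonic bases lie outside the span of CG1801. Its 544, 278 and 319 reads in control thorax, gut and carcass, and 1145, 371 and 365 in the foxo RNAi libraries, are left out of comparisons of level between genes. The targeted gene foxo stood at 183 CPM (read counts per library size, scaled with edgeR's TMM factors) in control thorax and 131 in foxo RNAi thorax, at 111 and 88.1 in gut and at 90.4 and 70.1 in carcass.

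The 30 measured subunits formed a small and even pool of RNA in every library. They held 0.477% of all reads in control thorax, 0.364% in control gut and 0.492% in control carcass, and 0.475%, 0.471% and 0.601% in the same foxo RNAi tissues. The Wilson 95% interval of each share, which covers counting error only, was narrow, for example 0.361 to 0.367% in control gut. On the TMM scale the summed level was highest in the gut libraries, at 5124 CPM in the control and 5725 in foxo RNAi. It was 4589 and 4290 CPM in thorax and 4246 and 4694 CPM in carcass. The order of the tissues thus depended on the scale, and 10 gut marker genes summed to 151131 and 102532 CPM in the gut libraries. In bulk tissue, fewer cells with a transcript and less RNA per cell cannot be told apart.

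Compared per kilobase of the exon sequence that could be counted, 29 measured subunits spanned a narrow range of levels. The highest level exceeded the lowest 3.95-fold in control thorax, 2.38-fold in control gut and 2.40-fold in control carcass, and 3.52-fold, 2.39-fold and 2.31-fold in the foxo RNAi libraries. The thorax libraries were thus the least even, with coefficients of variation across subunits of 36.1 and 31.7%, against 20.3 and 22.5% in gut and 28.8 and 25.9% in carcass. Prosbeta5 was the highest subunit in both thorax and both carcass libraries, at 276 and 235 CPM per kb in thorax and 170 and 175 in carcass, and Prosalpha2 was highest in gut at 190 and 220. The lowest was Prosalpha6 in control thorax at 69.7 CPM per kb and Rpt5 in foxo RNAi thorax at 66.8. The median level of core particle subunits was above that of regulatory particle subunits in every library, although single subunits overlapped, and the ratio of the medians ran from 1.30 in control gut to 1.74 in control carcass.

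**Figure D1:**
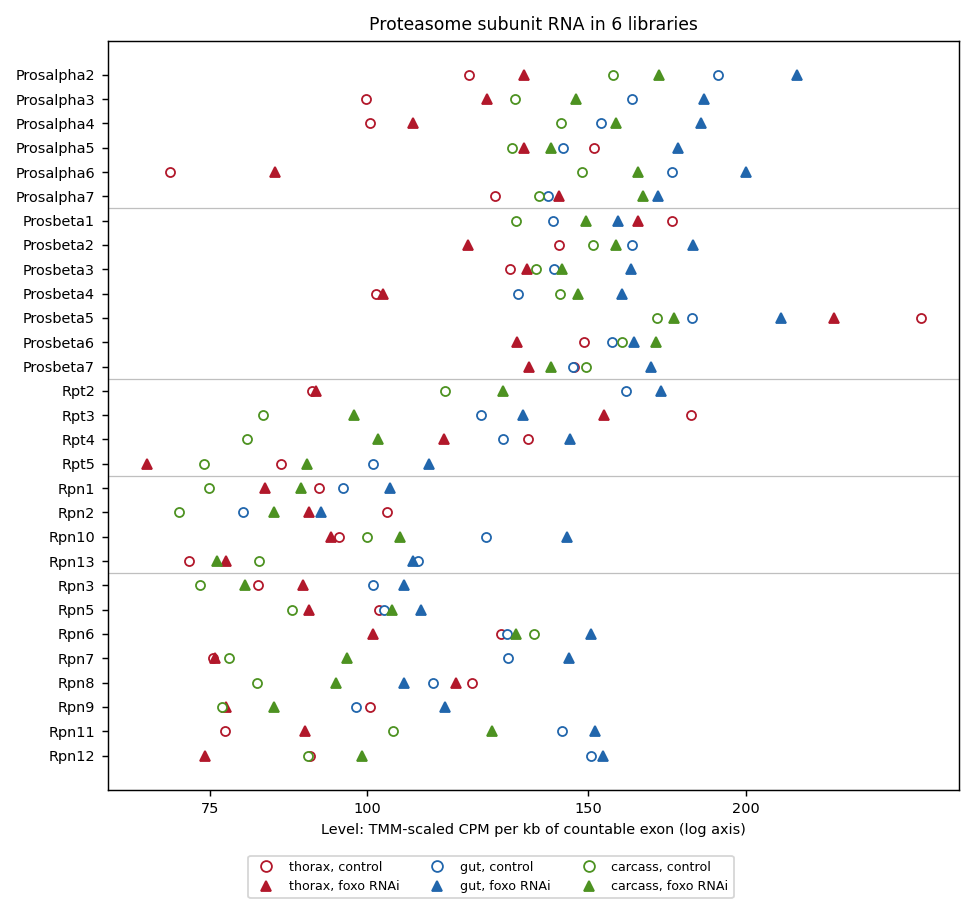
Level of 29 measured proteasome subunits in each of the 6 libraries, in TMM-scaled CPM per kb of countable exon on a log axis, with open circles for control and filled triangles for foxo RNAi libraries and lines between the alpha ring, beta ring, ATPases, other base subunits and lid. Compared between libraries within each gene, Prosalpha6 is lowest in the 2 thorax libraries (red) and Prosbeta5 and Rpt3 are highest there.

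Thorax was compared with gut to see how the subunits differ between muscle-rich and digestive tissue. Of the 30 measured subunits 8 were lower in thorax than in gut, 0 were higher and 22 were not called. Over all 9293 genes tested, 26.5% were called lower and 28.1% higher, so the share of lower subunits is near the background and the 0 higher ones stand against 28.1%. The call is an adjusted p under 0.05 in edgeR's quasi-likelihood test on the 6 libraries with genotype as a covariate, which left 2 residual degrees of freedom. The differences of the subunits were small, with a median of -0.27 and a standard deviation of 0.40 on the log2 scale, against -0.06 and 3.00 over all genes. With 1 library per genotype and tissue, the replicates of a tissue are libraries of different genotype, and p-values measure only the spread between them. At an unadjusted p under 0.05, edgeR had 11 lower and 0 higher subunits, and DESeq2 with adjusted p-values called 9 lower and 0 higher. With total counts in place of TMM factors, 3 subunits were higher and 1 was lower. The shares of all genes under these alternatives are not given here, so these counts have no background beside them. The count of lower subunits dropped to 2 without control thorax and to 1, Prosalpha6, without control gut, foxo RNAi thorax or foxo RNAi gut. In simulated data with 9060 of 9255 genes unchanged, edgeR called 77.8% of 4-fold and 10.4% of 2-fold differences. Far more genes were called in the real comparison, so these rates do not give its power.

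The alpha ring held 4 of the 8 lower subunits, with a median difference of -0.66 over its 6 measured members. Prosalpha6 (chr2L:10221351-10222546), an alpha ring subunit, stood at 74.6 CPM in control thorax and 90.5 in foxo RNAi thorax, at 187 and 214 in gut and at 159 and 176 in carcass. Both thorax libraries lay below all 4 others. Prosalpha6 was lower in thorax by -1.28 ± 0.20 (log2, SE, 2 libraries per tissue), or 2.43-fold, with an adjusted p of 0.00378 in edgeR. Prosalpha2 stood at 108 and 119 CPM in thorax, 170 and 197 in gut and 141 and 153 in carcass, and was lower in thorax than in gut by -0.69 ± 0.19 (edgeR adjusted p = 0.0287). On that scale its thorax libraries, too, lay below the 4 others, whereas in RPKM thorax and gut overlapped. Prosalpha4 and Prosalpha3 were also called lower, at -0.69 and -0.64, whereas Prosalpha5 and Prosalpha7, at -0.16 and -0.20, were not called.

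The lid contributed 3 lower subunits and the ATPases 1. Rpn12, a lid subunit, stood at 89.6 CPM in control thorax and 74.0 in foxo RNAi thorax, against 150 and 153 in gut and 89.3 and 98.6 in carcass. It was lower in thorax than in gut by -0.89 ± 0.21 (edgeR adjusted p = 0.0158), and its thorax and carcass values overlapped. Rpn7, also of the lid, gave 98.4 and 98.8 CPM in thorax, 169 and 189 in gut and 101 and 126 in carcass, a difference between thorax and gut of -0.86 ± 0.20 (edgeR adjusted p = 0.016). Rpn11, the deubiquitinase that removes ubiquitin chains as the substrate enters, gave 93.2 and 108 CPM in thorax, 173 and 183 in gut and 127 and 152 in carcass, with a difference of -0.83 ± 0.19 (edgeR adjusted p = 0.0162). On the TMM scale the values of Rpn12 and Rpn7 set gut apart from both other tissues and those of Rpn11 were ordered thorax, carcass, gut without overlap, but in the deposited RPKM, scaled by total reads, gut and carcass overlapped for Rpn12, Rpn7 and Rpn11. The ATPase Rpt2 had the order of Rpn11 on the TMM scale and overlapped between gut and carcass in RPKM. It stood at 136 and 137 CPM in thorax, 242 and 258 in gut and 174 and 194 in carcass, and was lower in thorax than in gut by -0.87 ± 0.21 (edgeR adjusted p = 0.0169).

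No beta ring subunit was called between thorax and gut, the catalytic ones included. Prosbeta5 stood at 292 and 249 CPM in control and foxo RNAi thorax, at 192 and 226 in gut and at 180 and 186 in carcass. Both thorax libraries were highest, but the difference from gut of 0.37 ± 0.23 was not called (edgeR adjusted p = 0.223), with a 95% interval from -0.21 to 0.96. Prosbeta1 stood at 147 and 138 CPM in thorax, 118 and 133 in gut and 110 and 126 in carcass, with a difference from gut of 0.19 that was not called either. Prosbeta2 stood at 135 and 115 CPM in thorax, 155 and 173 in gut and 144 and 150 in carcass, with a difference of -0.39 that was not called.

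Thorax differed from carcass in 2 measured subunits. The ATPase Rpt3 (chrX:11125101-11126785) was higher in thorax, the only call in that direction against 21.9% of all genes, and Prosalpha6 was lower, the only such call against 19.3%. Rpt3 stood at 281 and 240 CPM in control and foxo RNAi thorax, 191 and 207 in gut and 128 and 152 in carcass, with no overlap between tissues on that scale, and in RPKM gut and carcass overlapped below both thorax libraries. It exceeded carcass by 0.90 ± 0.23 (edgeR adjusted p = 0.0303), or 1.86-fold, while its 0.39 over gut was not called (edgeR adjusted p = 0.203). Prosalpha6 was lower than in carcass by -1.02 ± 0.19 (edgeR adjusted p = 0.0131). The median difference was -0.09 over the subunits and -0.03 over all genes. Total-count scaling gave 0 higher and 4 lower subunits, without a share of all genes to set beside them. The Rpt3 call was lost when any 1 of the 6 libraries was left out, and the Prosalpha6 call against carcass without control thorax, foxo RNAi thorax or foxo RNAi carcass.

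Gut and carcass differed little in which subunits they used, but under TMM scaling nearly all subunits leaned towards gut. Under that scaling the difference was above 0 for 29 of 30 subunits and for 4307 of 9293 genes. The median was 0.31 against -0.10 over all genes under TMM scaling and -0.37 against -0.77 with total counts. With TMM factors 2 passed the test: Rpn12 at 0.69 ± 0.21 (edgeR adjusted p = 0.0436) and Rpn7 at 0.66 ± 0.20 (edgeR adjusted p = 0.0444). That is 2 higher and 0 lower of 30, against 20.7% of all genes called higher and 22.8% called lower, and with total counts 0 were higher and 3 lower. DESeq2 called 4 higher and 0 lower, and 4 and 0 had an unadjusted p under 0.05 in edgeR. For these counts and those with total counts, no share of all genes is given here. By role, the median difference was 0.51 for the ATPases, 0.38 for the lid, 0.33 for the other base subunits, 0.25 for the alpha ring and 0.12 for the beta ring. Both calls were lost when any 1 of the 6 libraries was left out.

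**Figure D2:**
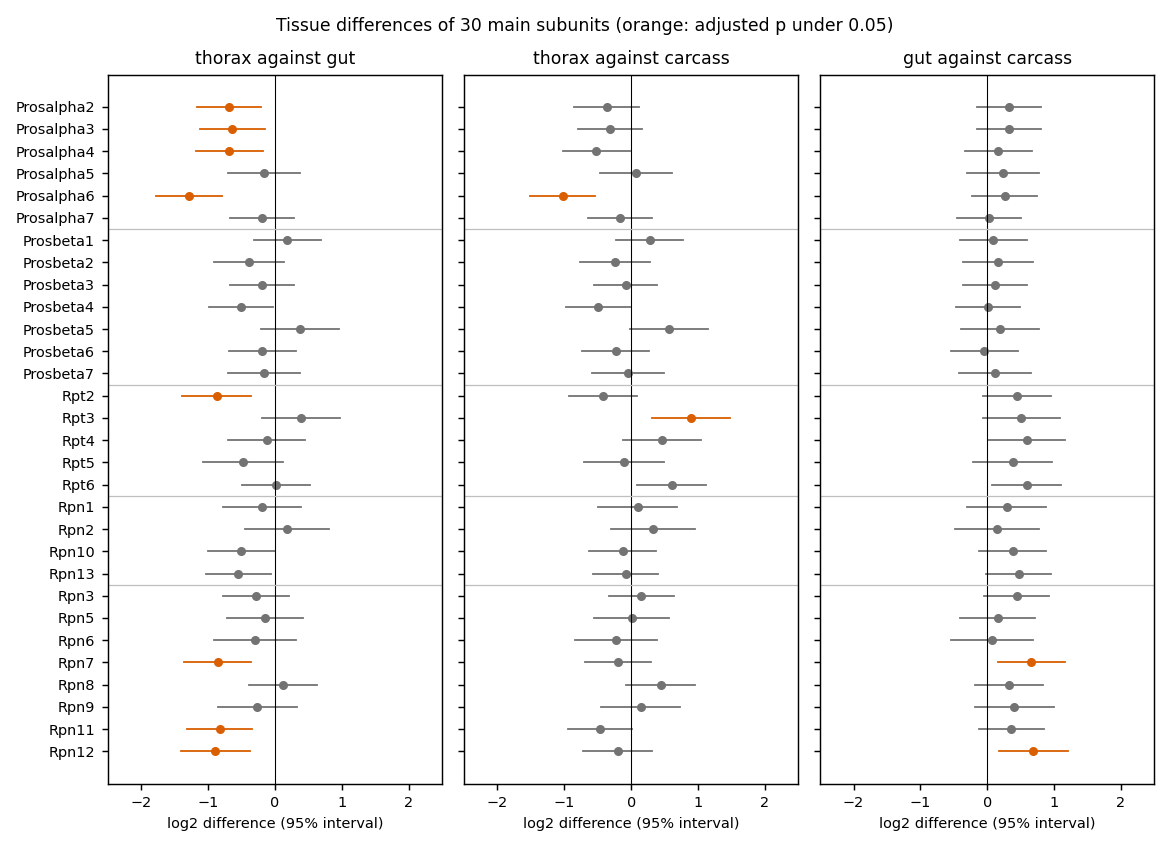
Log2 difference of each of 30 measured subunits between tissues, with its 95% interval from edgeR and calls at an adjusted p under 0.05 in orange. The 8 subunits lower in thorax than in gut are Prosalpha2, Prosalpha3, Prosalpha4, Prosalpha6, Rpt2, Rpn7, Rpn11 and Rpn12, and against carcass Prosalpha6 is lower and Rpt3 higher.

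The sign of the median depended on how libraries were scaled in 2 of the 3 tissue comparisons, and stayed negative for thorax against carcass (-0.09 with TMM, -0.27 with total counts). With total counts instead of TMM factors the median of all genes moved from -0.06 to 0.43 between thorax and gut and from -0.10 to -0.77 between gut and carcass, and the subunits moved with it, to 0.22 and -0.37. Relative to the median of all genes, the subunits lay -0.22 below it in thorax against gut with TMM and -0.21 with total counts. In gut against carcass they lay 0.41 above it under both scalings.

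The share of each subunit within the reads of all 30 does not depend on library scaling, and it set the thorax apart in named subunits. Prosalpha6 took 1.63% of the subunits' reads in control thorax and 2.11% in foxo RNAi thorax, against 3.65 and 3.74% in gut and 3.74% in each carcass library. Rpt3 took 6.13 and 5.59% in thorax, 3.74 and 3.61% in gut and 3.02 and 3.23% in carcass. Prosbeta5 took 6.35 and 5.80% in thorax, 3.75 and 3.94% in gut and 4.24 and 3.96% in carcass. Shares are parts of a fixed whole, so higher shares of some members come with lower shares of others by construction. In both thorax libraries Rpt3 and Prosbeta5 lay above and Prosalpha6 below all 4 other libraries. Rpn2, a base scaffold, was also above, at 7.71 and 7.16% in thorax against 5.31 to 6.13% elsewhere, and Rpt2 was below, at 2.97 and 3.20% against 4.10 to 4.73%. When edgeR was rerun with libraries scaled to the summed reads of these subunits, Prosalpha6 was still lower in thorax than in gut (-0.99, adjusted p = 0.0167) and carcass (-1.01, adjusted p = 0.0226) and Rpt3 higher than in carcass (0.90, adjusted p = 0.0331). Under that scaling, chosen after the data were seen, no other subunit was called between tissues. Over all genes 51.2% were called between thorax and gut, 38.8% between thorax and carcass and 44.1% between gut and carcass. The scaling makes the summed reads of the subunits equal in all libraries, which centres their differences near 0. The low number of subunit calls beside these shares is thus largely set by the scaling.

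Ratios of reads between subunits of the same library show the same contrast without any scaling. The pairs were chosen after their values were seen and are a description. Prosbeta5 had 3.91 reads for each read of Prosalpha6 in control thorax and 2.75 in foxo RNAi thorax, against 1.03 and 1.06 in gut and 1.13 and 1.06 in carcass. Among the catalytic subunits, Prosbeta5 had 2.16 and 2.17 reads per read of Prosbeta2 in thorax and between 1.24 and 1.31 in the 4 other libraries. Prosbeta1 had 1.09 and 1.21 reads per read of Prosbeta2 in thorax and between 0.763 and 0.836 elsewhere. Flight muscle marker genes summed to 23380 and 19861 CPM in the thorax libraries and to between 1148 and 1768 CPM in the others, with all 9 listed markers detected in thorax. Fat body markers summed to 10487 and 17062 CPM in thorax and to 26086 and 11661 CPM in carcass, so the thorax libraries held RNA of that kind too. Their part in the subunit differences was not tested.

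**Figure D3:**
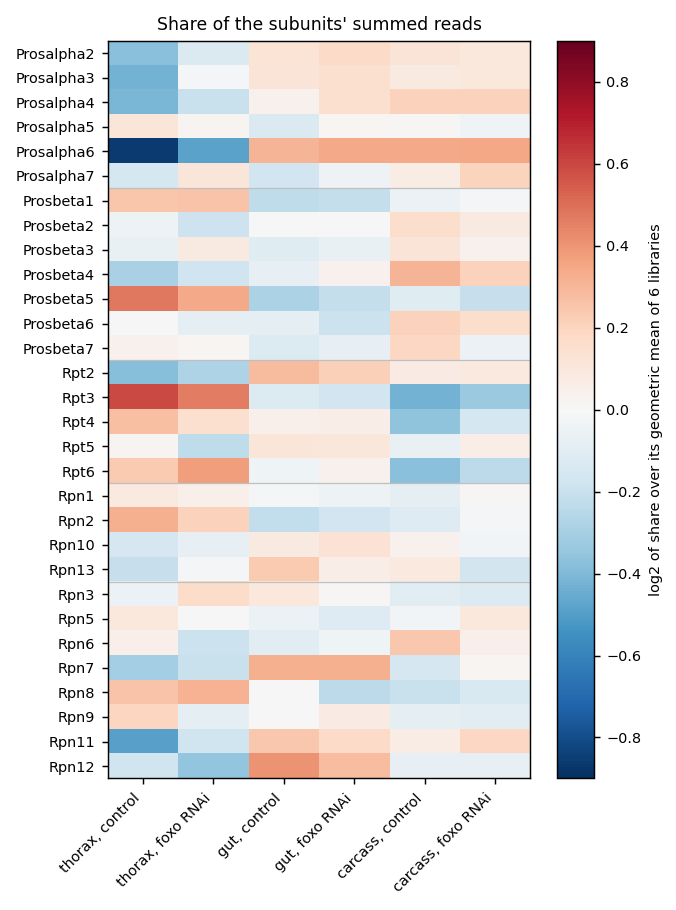
Share of each subunit in the summed reads of the 30 measured subunits, as the log2 of its share over the geometric mean of the 6 libraries, from blue (lower) to red (higher). In the 2 thorax columns Prosalpha6 is the deepest blue and Rpt3 and Prosbeta5 are red.

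The tissue profile recurred in both genotypes, for the subunits and over all genes. Between thorax and gut, the log2 differences of the control libraries and of the foxo RNAi libraries, which share no library, correlated across the 30 subunits with r = 0.893. On the same side of the median lay 26 of 30 subunits and 8289 of all 9293 genes, so the subunits were near the background in this. The correlation was 0.893 for thorax against carcass and 0.802 for gut against carcass, and over all 9293 genes it was 0.938, 0.789 and 0.876. These are correlations across genes, which are not independent replicates, and the libraries share the library kit and the gene annotation.

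For the knockdown the question was whether foxo RNAi driven in flight muscle altered subunit RNA in thorax or in the tissues outside it. No measured subunit was called in any tissue. With 1 library per group there is no test within a tissue: a gene was called where both libraries together held at least 30 reads, the ratio of foxo RNAi to control was at least 2-fold and the near bound of its exact 95% interval was at least 1.5-fold, an interval that covers counting error only. By this rule 0 of 30 subunits were called in thorax, gut or carcass, against 6.28%, 5.4% and 13.6% of all genes. The targeted gene foxo was not called in any tissue either. Its ratios were 0.717 (0.686 to 0.749) in thorax, 0.783 (0.719 to 0.852) in gut and 0.764 (0.708 to 0.823) in carcass, with intervals that overlapped between tissues. With total counts the foxo ratios were 0.761, 0.921 and 0.857. The genotype term common to the 3 tissues gave 0 of 30 calls and 0 of 9293 in edgeR, with 0 subunits and 637 genes, or 6.85%, at an unadjusted p under 0.05. DESeq2 called 34 genes higher and 87 lower, among them 0 subunits. The term had a median of 0.08 over the subunits and 0.02 over all genes and ran from -0.06 for Rpn6 to 0.24 for Prosalpha7 (SE 0.16, 95% interval -0.15 to 0.64).

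In thorax the ratios lay on both sides of 1 within every role, and no difference between roles was tested. The median log2 ratio was -0.06, with 13 subunits above 0 and 17 below. The alpha ring had a median of 0.16 with 5 of 6 members above 0, while the ATPases stood at -0.21, the beta ring at -0.11, the lid at -0.11 and the other base subunits at -0.08. Prosalpha3 had 1817 reads in control thorax and 4619 in foxo RNAi thorax, a scaled ratio of 1.25 (1.19 to 1.32), and Prosalpha6 had 1394 and 3449, a ratio of 1.22 (1.15 to 1.30). At the other end Rpn9, a lid subunit, had 2660 and 4168 reads and a ratio of 0.772 (0.735 to 0.811), and the ATPase Rpt5 had 0.785 (0.748 to 0.825). The catalytic Prosbeta5, Prosbeta2 and Prosbeta1 had ratios of 0.858, 0.852 and 0.944. The interval lay wholly above 1 for 8 subunits and wholly below 1 for 15, where 30.3% and 28.6% of all genes did so. With total counts as the scale these became 13 and 12. Beside these ratios, gut markers summed to 69.1 and 1841 CPM in control and foxo RNAi thorax, fat body markers to 10487 and 17062 CPM, heat shock genes to 1558 and 3053 CPM and flight muscle markers to 23380 and 19861 CPM. Their part in the result was not tested.

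In gut and carcass nearly all subunits leaned upwards in the foxo RNAi library. In gut 28 of 30 were above 0 on the log2 scale, as were 3847 of 7866 genes, with a median of 0.16 against -0.01 over all genes. In carcass 27 of 30 were above 0, as were 4598 of 8589 genes, with a median of 0.12 against 0.06. The interval lay wholly above 1 for 21 subunits in gut and 20 in carcass, where 23.4% and 39.4% of all genes did so, and wholly below 1 for 1 and 3, against 26.3% and 33.9%. With total counts 30 lay wholly above 1 in gut and 28 in carcass, and 0 below in either, without a share of all genes to set beside them. Here and in thorax, the shares cover every gene with at least 30 reads in both libraries together. Intervals widen at low counts, so they are not matched to the subunits in depth. In gut the highest was Prosalpha5 at 1.21 (1.13 to 1.30), followed by Prosalpha7 at 1.20, and the lowest were Rpn8 at 0.934 and Rpn13 at 0.974. In carcass the highest was the ATPase Rpt4, with 1995 and 2378 reads and a ratio of 1.25 (1.18 to 1.33), followed by Rpn7 at 1.22, and the lowest were Rpn13 at 0.912 and Prosbeta7 at 0.923. Total-count scaling raised the medians to 0.40 in gut and 0.29 in carcass and the medians of all genes to 0.22 in each, so the subunits lay 0.17 and 0.07 above them. Beside the carcass ratios, ovary markers summed to 1535 and 2961 CPM in control and foxo RNAi, gut markers to 670 and 83.8 CPM, fat body markers to 26086 and 11661 CPM and heat shock genes to 2607 and 4060 CPM. Beside the gut ratios, gut markers summed to 151131 and 102532 CPM, flight muscle markers to 1148 and 1611 CPM, fat body markers to 784 and 462 CPM and heat shock genes to 2665 and 2031 CPM. The part of these marker levels in the ratios was not tested.

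**Figure D4:**
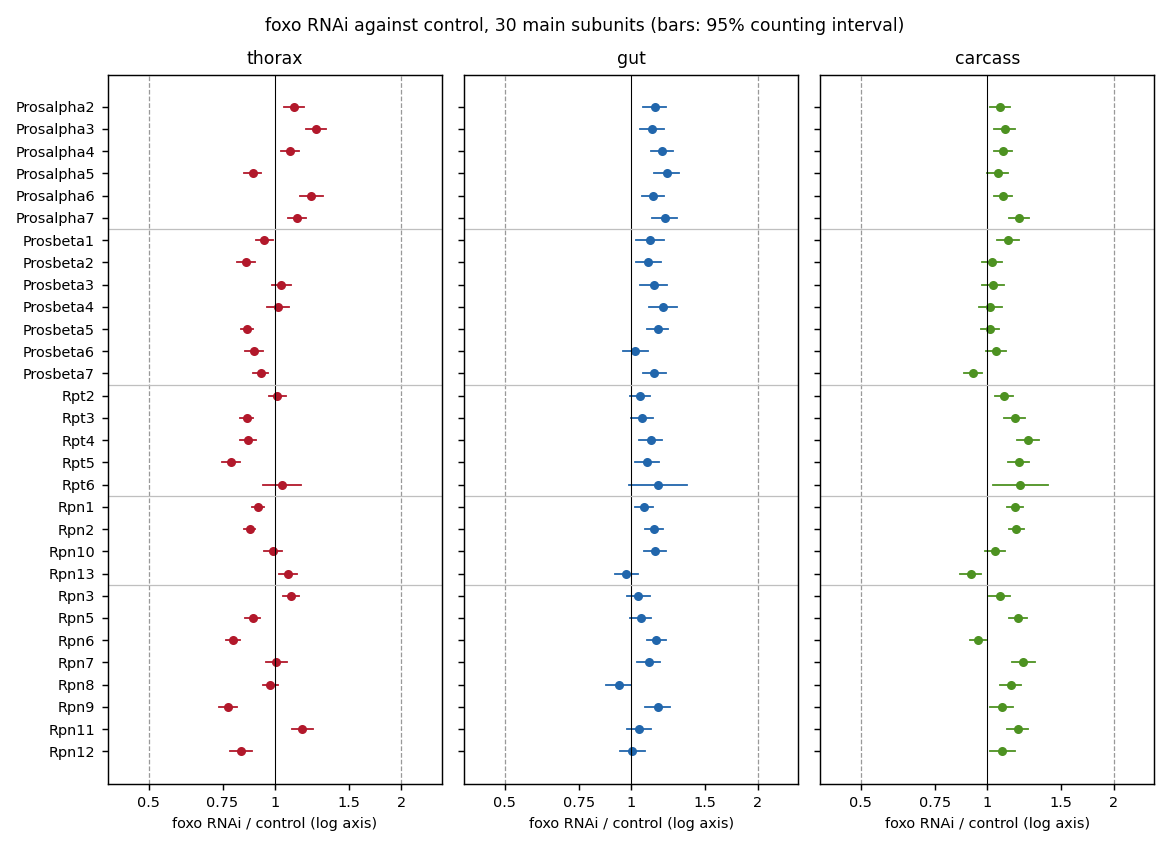
Ratio of foxo RNAi to control for each of 30 measured subunits in thorax, gut and carcass on a log axis, with exact 95% intervals that cover counting error only and dashed lines at 0.5 and 2. No subunit reaches either dashed line; 28 of 30 points in gut and 27 of 30 in carcass lie above 1, and 13 of 30 in thorax.

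The testis-type paralogues, copies of core and regulatory subunit genes known in Drosophila mainly from the male germline, were close to silent. Of the 15, 9 had any read, 6 had none and 4 had at least 10 reads over the 6 libraries. Rpn13R, Rpn12R and Prosalpha4T1 lie wholly inside other genes and count as not measured. Together the paralogues held between 10 reads in control gut and 200 in foxo RNAi thorax, or 0.0189 to 0.122% of the reads of the main subunits. A count of 0 allowed up to 0.0787 CPM in the deepest library and 0.291 CPM in control gut, at 3 reads per library. Prosbeta2R2 had 13, 0 and 5 reads in control thorax, gut and carcass and 26, 3 and 0 in the foxo RNAi libraries, and Prosalpha4T2 had 5, 0 and 2 and 10, 0 and 1. Rpt3R, a copy of the ATPase gene Rpt3, had 13, 6 and 8 reads in the controls and 46, 20 and 10 in foxo RNAi.

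Rpt6R, a copy of the ATPase gene Rpt6 (chr3R:30582198-30583697), was the exception among the paralogues by the size rule. It had 9 reads in control thorax and 114 in foxo RNAi thorax, 2 and 9 in gut and 12 and 5 in carcass. The thorax ratio was 5.94 (3.17 to 14.0) and was called higher, as were 3.56% of all genes. The call held under every scaling and added count tried. Rpt6R passed the read minimum only through the foxo RNAi library, so the other read minima tried give no support. The levels were 0.482 and 2.99 CPM. The ratios were 3.30 (0.808 to 37.1) in gut and 0.461 (0.121 to 1.33) in carcass. Both tissues fell short of 30 reads, so the rule could not call Rpt6R there whatever the ratio. The common genotype term of 1.23 ± 0.88 was not called (edgeR adjusted p = 0.845). Of 16 listed testis genes, 10 had any read, and they summed to 55.9 CPM in control thorax, of which 53.9 was Tektin-C, and to 2.31 in foxo RNAi thorax, of which 0.813 was Tektin-C. Without Tektin-C the sums were 2.03 and 1.50 CPM. Reads were found for 7 testis genes in control thorax and 10 in foxo RNAi thorax. Of the listed genes, dj, Mst98Ca and Mst98Cb were at 0 in control thorax only, and ocn, sa, fzo, Mst84Da, Mst84Db and Tektin-A in both. Of 5 male accessory gland genes, 0 had reads in control thorax and 3 in foxo RNAi thorax, where they summed to 0.394 CPM. Their part in the Rpt6R ratio was not tested. The treatment of reads that fit both Rpt6 and Rpt6R is not stated in the labels.

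A list of 21 genes that assemble, feed or regulate the proteasome, all with reads, was compared in the same fit. In thorax against gut 9 were lower and 1 was higher, where 26.5% and 28.1% of all genes were called, with a median of -0.47 against -0.06 over all genes. The proteasome-bound deubiquitinase Uch-L5 stood at 10.6 and 14.4 CPM in thorax, 30.7 and 39.1 in gut and 33.2 and 53.7 in carcass. It was lower in thorax than in gut by -1.49 ± 0.21 (edgeR adjusted p = 0.00297) and than in carcass by -1.78 ± 0.21 (edgeR adjusted p = 0.00408). The second proteasome-bound deubiquitinase, Usp14, was lower than in gut by -0.69, and the small lid component Sem1 by -0.88. The remaining lower genes against gut were the polyubiquitin gene Ubi-p5E (-1.26), the ubiquitin-conjugating enzyme gene eff (-1.19), the shuttle and protease gene rngo (edgeR adjusted p = 0.00775), the deglycosylase gene Pngl (-0.81), and Keap1 (-1.23) and maf-S (-0.87), which encode the inhibitor and the partner of cap-n-collar. Against carcass 3 were lower in thorax, which were Uch-L5, rngo (-0.99) and the activator gene REG (-0.89), and 1 was higher, where 19.3% and 21.9% of all genes were called. In gut against carcass Keap1 (1.08), Ubi-p5E (1.02) and maf-S (0.96) were higher and 0 were lower, where 20.7% and 22.8% of all genes were called. In that comparison edgeR had 6 higher and 1 lower at an unadjusted p under 0.05 and DESeq2 called 6 higher and 1 lower. These 2 counts have no share of all genes beside them. The 2 polyubiquitin genes encode near-identical repeats, so the split of reads between them is uncertain.

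The call in the opposite direction was Npl4, a cofactor of the unfoldase TER94. It had 59285 and 116050 reads in the thorax libraries and between 769 and 1523 in the others, a difference of 5.30 ± 0.35 from gut (edgeR adjusted p = 0.000469) and 5.16 ± 0.34 from carcass (edgeR adjusted p = 0.00145). The coding genes CG5079 and CG5071 lie inside its span and are listed at 0 reads, so the reads listed for Npl4 cannot be told apart from theirs. TER94 itself stood at 574 CPM in both thorax libraries, 642 and 753 in gut and 591 and 656 in carcass, and was not called. Nor were cnc, the cap-n-collar factor that in flies drives proteasome genes when degradation is blocked, Pomp, the ubiquitin-activating enzyme gene Uba1 or the polyubiquitin gene Ubi-p63E between any tissues.

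Pomp, the chaperone that matures the beta ring and is consumed as the core particle forms, had the highest genotype ratios of the list in gut and carcass. It had 1663 reads in control and 4436 in foxo RNAi thorax, 874 and 2002 in gut and 1318 and 2254 in carcass. The scaled ratios were 1.31 (1.24 to 1.39), 1.99 (1.83 to 2.15) and 1.79 (1.67 to 1.92), above 1 in 3 of 3 tissues and all under the 2-fold of the rule. With total counts the ratios in gut and carcass were 2.34 and 2.01 and both were called. The common genotype term was 0.76 ± 0.19 and did not pass (edgeR adjusted p = 0.575). Uba1 was also above 1 in each tissue, at 1.19, 1.28 and 1.36, and so was Uch-L5 at 1.36, 1.25 and 1.59. The ratios of Sem1 (1.12, 1.23 and 1.04), eff (1.10, 1.21 and 1.16), TER94 (1.00, 1.15 and 1.09) and p47 (1.03, 1.06 and 1.09) were also above 1. The counting interval nevertheless included 1 for TER94 in thorax (0.981 to 1.03), for p47 in thorax and gut and for Sem1 in carcass. The share of all genes above 1 in each tissue is not given here. The gene for the shuttle factor Rad23, which carries ubiquitinated proteins to the proteasome, had 4526 and 4647 reads in control and foxo RNAi thorax, a ratio of 0.506 (0.485 to 0.527). Its ratios in gut and carcass were 1.05 and 1.13. The polyubiquitin gene Ubi-p63E had a ratio of 0.643 in thorax, 1.24 in gut and 0.826 in carcass, and cnc had 0.976, 0.764 and 0.788. With TMM factors the size rule called 0 partner genes in thorax, gut or carcass, against 6.28%, 5.4% and 13.6% of all genes. The common term in edgeR called 0 partner genes and 0 of all 9293. At an unadjusted p under 0.05 in edgeR, 2 partner genes were higher and 0 lower, where 6.85% of all genes passed in either direction. DESeq2 called 0 partner genes, beside 34 higher and 87 lower over all genes.

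**Figure D5:**
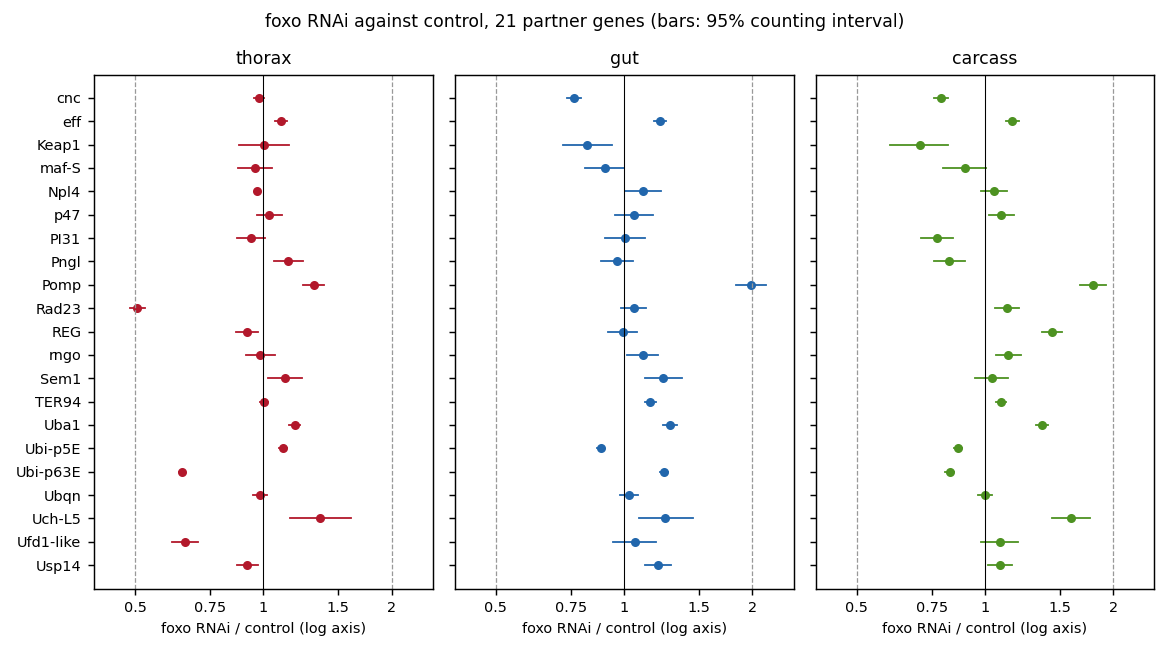
Ratio of foxo RNAi to control for 21 partner genes in thorax, gut and carcass on a log axis, with exact 95% intervals that cover counting error only and dashed lines at 0.5 and 2. Pomp lies farthest to the right in gut (1.99) and carcass (1.79), and Rad23 (0.506) farthest to the left in thorax.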

How the data were processed

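The deposited files hold raw read counts for each gene as whole numbers, and RPKM values computed over the genomic span of each gene, introns included; the RPKM was used as an alternative only. Libraries were made from total RNA with a stranded kit, per the labels' protocols, and reads of 50 bases were mapped to Release 6, per the design text. The aligner, the counter, its annotation and its strand and multi-mapping settings are not stated in the labels, so overlapping genes are uncertain. The submitters state a depth of 7000000 to 12000000 reads, below the deposited sums.

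Counts were tested with edgeR 4.0.16 (R 4.3.3; TMM, glmQLFit, genes passing filterByExpr by tissue, Benjamini-Hochberg over 9293 genes), with DESeq2 1.42.0 as an alternative. Genotype ratios added 0.5 to each count and used TMM factors of the 2 libraries of a tissue with exact Clopper-Pearson 95% intervals (scipy 1.17.1); levels in CPM used TMM factors of all 6 libraries. Fold calls and intervals without replicates cover counting error only. Countable exon is the exonic sequence (Ensembl 115, same coordinates) inside a gene's span and outside every other listed gene's. The named subunits were the catalytic ones, up to 6 called per comparison and direction, and otherwise the 2 highest and 2 lowest. Partner genes were named where called or listed in that rule. Rad23, Rpn2, the genotype ratios of Uch-L5, Sem1, eff and p47 and the read ratios were chosen after their values were seen. The members and lists were chosen with earlier results of these data known. The scripts were tested on simulated data. Sequences and promoter motifs were not analysed here.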

Additional observations from a re-analysis of the deposited data

How the results depend on the processing

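Total-count scaling in edgeR gave 3 higher and 1 lower subunits for thorax against gut with a median of 0.22, 0 higher and 4 lower with a median of -0.27 for thorax against carcass, and 0 higher and 3 lower with a median of -0.37 for gut against carcass, where Rpn7 went to -0.0129. Scaling to the subunits' own summed reads, chosen after the data were seen, left 1 lower (median 0.0115) for thorax against gut and 0 higher (median 0.0272) for gut against carcass. It centres the subunits' differences near 0 by construction. For thorax against carcass, DESeq2 size factors gave 2 higher, DESeq2's Wald test 4 higher and 2 lower, and a fit to the libraries of those 2 tissues 0 higher. For gut against carcass, no filter on low counts gave 0 higher, DESeq2's Wald test 4 and the libraries of the 2 tissues alone 0. The median of the genotype term was 0.24 with total counts, and the median log2 ratios were 0.40 with total counts and 0.40 with the deposited RPKM in gut and 0.29 with either in carcass. The causes were not tested. Apart from the scaling to the subunits' own reads, the shares of all genes called between tissues under these settings are not given here. Prosalpha6 was called lower in thorax than in gut under all settings run.

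With each library left out in turn, the lower subunits of thorax against gut numbered 1 to 8 and their median ran from -0.41 to -0.14: 2 without control thorax, and 1, Prosalpha6, without control gut, foxo RNAi thorax or foxo RNAi gut. Thorax against carcass had 0 higher and 0 to 1 lower (median -0.18 to -0.02), gut against carcass 0 higher (median 0.21 to 0.32), and the genotype term a median of 0.02 to 0.17. A tissue left with 1 library was assumed to vary like the others. The tissue tests compared tissues within genotype, and leaving the genotype term out gave 9 lower subunits for thorax against gut. No paired analysis by replicate number was possible because the labels carry no such numbers. Depth limits the testis-type paralogues, at 10 to 200 reads per library, and the missing replicates limit all genotype ratios.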
